A study of Homo sapiens with 4 samples.

Results

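The nuclear long noncoding RNAs MALAT1 and NEAT1 and the host transcripts of small nucleolar RNAs (snoRNAs) were described in single cells of human melanoma lines. The members were listed by name: MALAT1, NEAT1, GAS5, SNHG1, SNHG5, SNHG6, SNHG7, SNHG8, EPB41L4A-AS1 and ZFAS1. Of these 10 RNAs, 6 are described here out of 19238 genes with counts, namely MALAT1, NEAT1, SNHG7, SNHG8, EPB41L4A-AS1 and ZFAS1. GAS5, SNHG1, SNHG5 and SNHG6 were not analysed here. The study profiled 3 sublines of a human melanoma line and that line itself, with 1 library per line and no replicate. The sublines are 113/6-4L, labelled for a high potential to form lung metastases, and 131/4-5B1 and 131/4-5B2, both labelled so for the brain. Their parent, WM239A, is labelled as metastasizing poorly. No treatment is named. A 3' droplet kit was used, in which every captured poly(A) RNA receives 1 barcode for its cell and 1 molecular tag (unique molecular identifier, UMI). The barcodes end in 1 of 4 suffixes, and no label ties a suffix to a line. The cells were therefore kept as barcode sets 1 to 4, which are unlabelled samples. No line was compared with another, and every interval covers counting error only. Apart from an outlier screen by Dixon's test, given near the end, no test between sets was made.

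MALAT1 is among the most abundant RNAs of mammalian nuclei and gathers in nuclear speckles, where splicing factors are stored. NEAT1 is the scaffold RNA of paraspeckles, nuclear bodies built around its long isoform, and its short isoform ends in a poly(A) tail. A snoRNA host gene carries snoRNAs in its introns, and these guide the chemical modification of ribosomal RNA. The exons left after splicing form the host transcript counted here, which often codes for no stable protein. Many such hosts begin with a terminal oligopyrimidine (5' TOP) tract, as ribosomal protein mRNAs do, and are degraded by nonsense-mediated decay (NMD). The counts say nothing of the snoRNAs themselves, which lack a poly(A) tail, nor of which NEAT1 isoform was present.

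In GENCODE release 29, MALAT1 and NEAT1 are lincRNAs on chromosome 11. SNHG8 and EPB41L4A-AS1 are lincRNAs on chromosomes 4 and 5, and SNHG7 and ZFAS1 are antisense genes on chromosomes 9 and 20. That annotation places SNORA24 within SNHG8, SNORA13 within EPB41L4A-AS1, SNORA17A and SNORA17B within SNHG7, and SNORD12, SNORD12B and SNORD12C within ZFAS1. The 50 bases around the annotated start are shown because the start is where a 5' TOP tract would lie. RefSeq's promoter table (GRCh38.p14) matched 5 of the 6 RNAs, all but NEAT1. Each line below runs from 25 bases before the start to 25 from it, on the transcribed strand. Capitals mark the longest run of a C followed by at least 4 bases that are C or T.
MALAT1, upstream start, chr11:65497713-65497762, plus strand: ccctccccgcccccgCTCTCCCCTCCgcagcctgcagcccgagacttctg
MALAT1, downstream start, chr11:65499020-65499069, plus strand: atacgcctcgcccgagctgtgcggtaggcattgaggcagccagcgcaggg
SNHG7, chr9:136728160-136728209, minus strand: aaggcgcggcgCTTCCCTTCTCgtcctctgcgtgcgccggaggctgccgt
SNHG8, chr4:118278737-118278786, plus strand: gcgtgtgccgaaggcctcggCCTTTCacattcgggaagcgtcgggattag
EPB41L4A-AS1, chr5:112160501-112160550, plus strand: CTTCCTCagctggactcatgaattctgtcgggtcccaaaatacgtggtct
ZFAS1, chr20:49278617-49278666, plus strand: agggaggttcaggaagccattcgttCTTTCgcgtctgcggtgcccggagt

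Such a run was present in 5 of the 6 windows, and the downstream MALAT1 window had none. The runs were 11 bases long at the upstream MALAT1 start and in SNHG7, 7 in EPB41L4A-AS1, 6 in SNHG8 and 5 in ZFAS1, where the run starts at the annotated first base. The run in EPB41L4A-AS1 begins at the window's first base, 25 bases before the annotated start, so it may extend further upstream. The same search over 35116 promoters found a run of 5 or more bases in 54.4%, and of 7 or more in 23.9%. Among 86 promoters of ribosomal protein genes the shares were 88.4% and 76.7%. These matches describe letters around annotated starts only. The start used in these cells was not measured.

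Sets 1 to 4 held 2121, 1779, 2140 and 2133 cells and between 71182648 and 71915542 UMIs each. Median UMIs per cell lay between 33152.5 and 41131, highest in set 2, and the median share of mitochondrially encoded UMIs between 5.41% and 7.12%, lowest in set 1. Detected genes per cell ran between 3001 and 6999, and no cell exceeded 19.9% mitochondrial UMIs. There were 39 barcodes that occurred in 2 sets each (78 of 8173 cells). No doublet caller was run and doublets were left in. Of 7 melanocytic markers 6 reached 10 counts per 1000000 UMIs in every set, with summed levels of 5081 to 8558. Summed fibroblast, endothelial, immune and epithelial markers lay at 0.210 to 13.6, 1.33 to 2.98, 0.294 to 1.04 and 1.03 to 2.02 on the same scale.

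The level of each RNA differed at most 1.28-fold between sets, and the order of the RNAs was the same in all 4 sets. Levels are given as CPM, an RNA's UMIs summed over the cells of a set per 1000000 UMIs of that set. In sets 1 to 4, MALAT1 stood at 6222, 7935, 7478 and 7218 CPM, and NEAT1 at 1485, 1514, 1343 and 1305 CPM. MALAT1 was thus lowest in set 1, whereas NEAT1 was higher in sets 1 and 2 than in sets 3 and 4. ZFAS1, host of the SNORD12 family, was the most abundant of the 4 hosts described, at 437, 419.6, 472 and 416 CPM. SNHG8 stood at 205, 212, 230.5 and 209 CPM and SNHG7 at 116, 94.4, 116 and 106 CPM. EPB41L4A-AS1 was the least abundant, at 51.0, 60.1, 65.4 and 61.5 CPM. ZFAS1, SNHG8 and EPB41L4A-AS1 were highest in set 3, and MALAT1 and NEAT1 in set 2. SNHG7 was highest in set 1 and lowest in set 2.

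**Figure D1:**
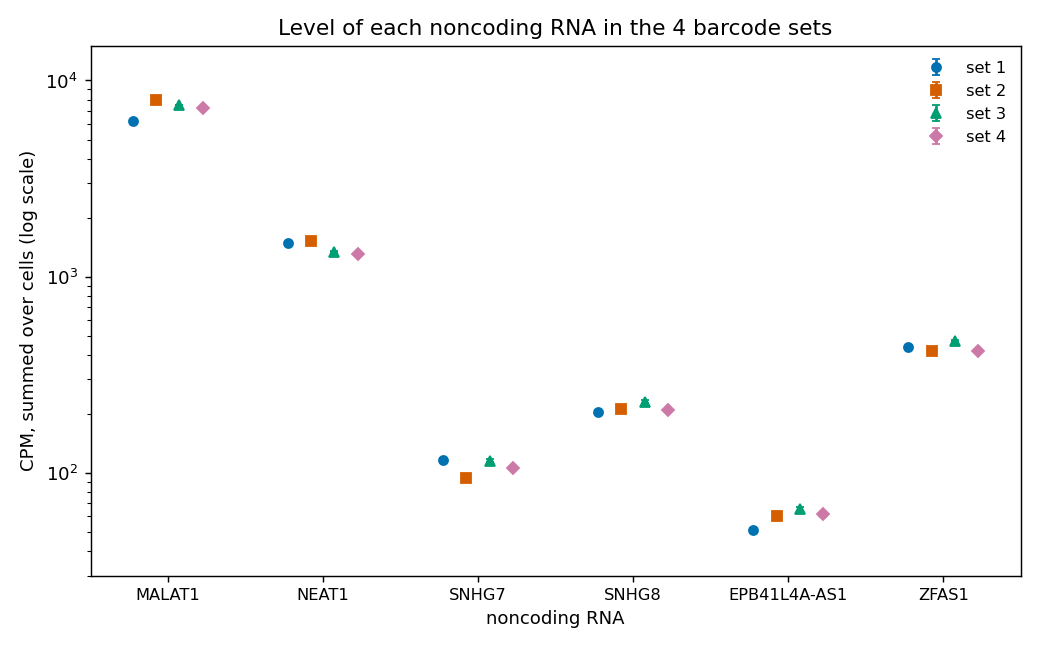
Level of each of the 6 noncoding RNAs in barcode sets 1 to 4 (CPM, log scale). Points are sums over all cells of a set and bars are exact 95% Poisson intervals, mostly smaller than the points. MALAT1 lies between 6222 and 7935 and EPB41L4A-AS1 between 51.0 and 65.4.

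None of the 6 RNAs differed 2-fold between its highest and lowest set on the log2(CPM + 1) scale, a difference reached by 5.85% of the 7421 genes that reached 10 CPM in any set. The widest ratios were 1.28 for EPB41L4A-AS1 in set 3 over set 1 (1.23 to 1.34) and 1.28 for MALAT1 in set 2 over set 1 (1.27 to 1.28). SNHG7 was 1.23-fold higher in set 1 than in set 2 (1.19 to 1.27), NEAT1 1.16-fold higher in set 2 than in set 4 (1.15 to 1.17), ZFAS1 1.13-fold higher in set 3 than in set 4 (1.12 to 1.15) and SNHG8 1.12-fold higher in set 3 than in set 1 (1.10 to 1.15). On the log2 scale the spans were 0.35, 0.35, 0.30, 0.21, 0.18 and 0.17 in that order, against a median of 0.33 over all genes compared. A wider span than that of SNHG8 was found for 85.6% of those genes, and a wider one than that of ZFAS1 for 82.6%. Counting error alone covered the difference between neighbours in the order for SNHG7 in sets 1 and 3, SNHG8 in sets 2 and 4 and in sets 4 and 1, EPB41L4A-AS1 in sets 4 and 2, and ZFAS1 in sets 2 and 4. How far libraries of 1 line would differ was not measured.

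MALAT1 and NEAT1 were seen in nearly every cell, and the hosts in most cells. MALAT1 was absent from 1, 3, 0 and 0 cells and NEAT1 from 6, 7, 3 and 3 cells of sets 1 to 4. ZFAS1 was missed in 4, 2, 1 and 0 cells. At the deposited depth SNHG8 had a UMI in 98.3%, 99.4%, 99.3% and 98.0% of cells, SNHG7 in 89.7%, 92.0%, 90.7% and 90.7%, and EPB41L4A-AS1 in 75.3%, 85.6%, 82.3% and 80.4%. With every cell thinned to 10000 UMIs, a step that left out 6, 1, 1 and 1 cells, these shares were 84.4%, 86.4%, 86.9% and 85.4% for SNHG8. They were 62.1%, 58.3%, 62.7% and 60.7% for SNHG7 and 40.0%, 43.3%, 46.3% and 45.3% for EPB41L4A-AS1. Set 2, with the deepest cells, thus had the highest share of SNHG7-positive cells before thinning and the lowest after it. No cell type that should lack these RNAs was present, so the part of free RNA in the shares was not measured.

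Among MALAT1, NEAT1, ZFAS1 and SNHG8, NEAT1 had the widest spread over cells relative to its level in every set. The middle 90% of cells was bounded by 1876 and 13085 CPM of MALAT1 in set 1, by 2144 and 16464 in set 2, by 1977 and 15296 in set 3 and by 2011 and 15619 in set 4. The ratio of the upper to the lower bound was between 6.98 and 7.77 for MALAT1, between 9.58 and 11.9 for NEAT1, and between 3.71 and 4.18 for ZFAS1. For SNHG8 it was 5.15 to 7.45, above that of MALAT1 in set 1, but there the lower bound rests on a few UMIs per cell. For SNHG7 and EPB41L4A-AS1 the lower bound was 0, so no ratio was taken. The single cell with the most NEAT1 had 13106 CPM, in set 4, and the cell with the most MALAT1 52498 CPM, in set 2.

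**Figure D2:**
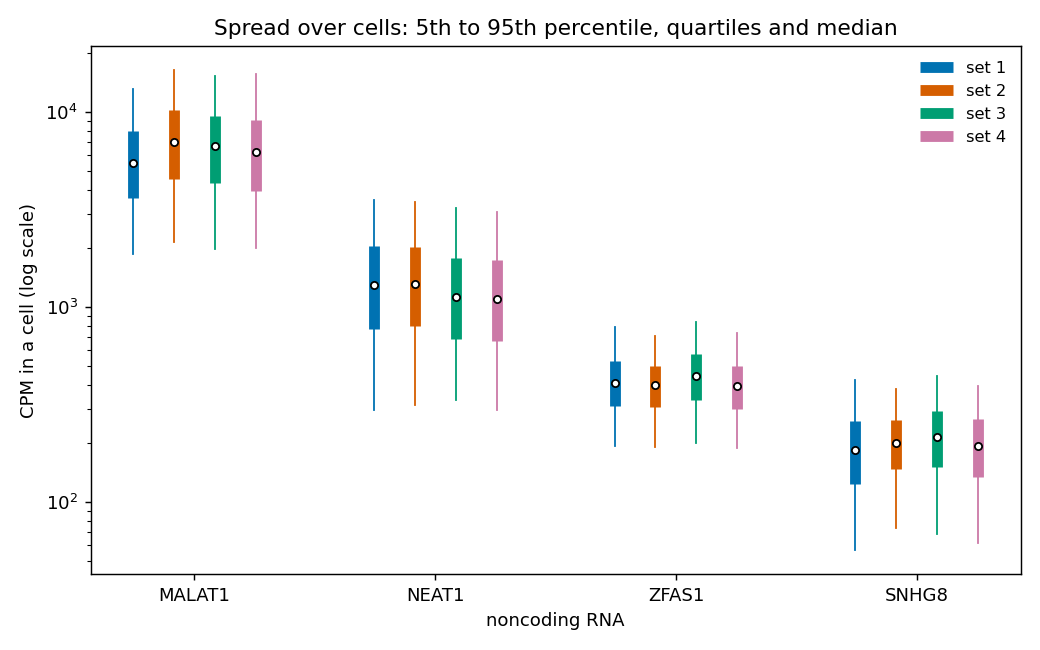
Levels in single cells (CPM of the cell's own UMIs, log scale) for MALAT1, NEAT1, ZFAS1 and SNHG8 in barcode sets 1 to 4. Thin lines run from the 5th to the 95th percentile of cells, thick bars mark the quartiles and open circles the median. NEAT1 has the longest lines relative to its median and ZFAS1 the shortest.

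The Fano factor, the variance of UMIs over cells divided by their mean, was taken on thinned cells. It is 1 for pure counting noise and grows with the mean where cells differ. MALAT1 had Fano factors of 23.3, 29.7, 24.4 and 28.6 in sets 1 to 4, and NEAT1 8.44, 7.997, 7.24 and 7.66. None of the 23, 14, 18 and 20 genes with a mean within 1.5-fold of MALAT1 had a higher one. At most 1 of the 78 to 91 such genes exceeded NEAT1 in any set. ZFAS1 followed with 1.91, 1.496, 1.73 and 1.64, falling just short of 1.5 in set 2, so 3, 2, 3 and 3 of the 6 RNAs reached 1.5. A Fano factor of 1.5 was reached by 3.91%, 3.10%, 3.26% and 2.86% of all genes with a mean of at least 0.05 UMIs. The other hosts lay nearer to counting noise, at 1.19 to 1.35 for SNHG7, 1.19 to 1.34 for SNHG8 and 1.08 to 1.17 for EPB41L4A-AS1. Medians over all genes were 1.03 to 1.04. Among genes with a mean within 1.5-fold, medians were 1.07 to 1.09 for SNHG7, 1.12 to 1.14 for SNHG8 and 1.05 to 1.06 for EPB41L4A-AS1. For ZFAS1 they were 1.20 to 1.27, and 26 of 286, 36 of 291, 19 of 237 and 20 of 280 such genes exceeded it in sets 1 to 4. As the Fano factor depends on the mean, the part of the coefficient of variation beyond counting noise was also computed. It was 67.2% to 70.7% for NEAT1, 56.3% to 62.3% for MALAT1, 43.0% to 55.7% for SNHG7, 34.9% to 52.9% for EPB41L4A-AS1, 34.5% to 45.4% for ZFAS1 and 29.5% to 40.7% for SNHG8.

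NEAT1 and, less strongly, most of the other RNAs were lower in cells called G2M than in cells called G1, while SNHG7 was higher. Phases were called from S and G2M gene scores on the thinned cells, and none of the 6 RNAs was among the genes scored. The share of cells called S or G2M was 62.6%, 71.5%, 69.5% and 79.5% in sets 1 to 4. NEAT1 stood at 1629.7, 1657 and 933 CPM in G1, S and G2M cells of set 1 and at 2097, 1523 and 908 CPM in those of set 2. Set 3 had levels of 1546, 1461 and 878 CPM, and set 4 had 1717, 1394 and 915 CPM. Its G2M level was the lowest of the 3 phases in every set. The S level lay below that of G1 in sets 2, 3 and 4, with counting intervals that did not overlap, and in set 1 it did not. G2M over G1, NEAT1 had ratios of 0.573 (0.562 to 0.584), 0.433 (0.425 to 0.441), 0.568 (0.557 to 0.579) and 0.533 (0.523 to 0.543).

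The hosts EPB41L4A-AS1, ZFAS1 and SNHG8 were all lower in S than in G1 in every set. For EPB41L4A-AS1, the host of SNORA13, the span over the phases was the widest of these hosts. Set 1 had 61.5, 45.2 and 46.4 CPM of it in G1, S and G2M cells, set 2 had 79.7, 54.1 and 51.3, set 3 had 84.3, 60.3 and 53.9, and set 4 had 91.3, 54.5 and 55.3. In sets 1, 2 and 4 the counting intervals of its S and G2M levels overlapped. Its ratios of G2M over G1 were 0.755 (0.691 to 0.825), 0.643 (0.593 to 0.698), 0.640 (0.590 to 0.694) and 0.606 (0.559 to 0.657). NEAT1 reached a 1.5-fold span over the phases in all 4 sets and EPB41L4A-AS1 in sets 2, 3 and 4, which makes 1, 2, 2 and 2 of the 6 RNAs. Among all genes with at least 10 CPM in the set, such a span was reached by 10.1%, 8.30%, 9.60% and 9.76%. A G2M level 1.5-fold below that of G1 was rarer, at 1.93%, 1.53%, 1.68% and 1.46% of genes.

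MALAT1 and the hosts ZFAS1 and SNHG8 spanned less and did not reach 1.5-fold in any set. In G1, S and G2M cells set 1 had 494, 408 and 410.3 CPM of ZFAS1, set 2 had 476, 396 and 406, set 3 had 541, 448 and 439, and set 4 had 521, 391 and 395. Of SNHG8, set 1 had 241, 184 and 193 CPM, set 2 had 239, 199.5 and 209, set 3 had 276, 218 and 203, and set 4 had 260.4, 196 and 199. For both hosts S was the lowest phase in sets 1, 2 and 4 and G2M in set 3, though the S and G2M intervals overlapped except for SNHG8 in set 3. MALAT1 had G2M over G1 ratios of 0.837, 0.776, 0.809 and 0.825, ZFAS1 of 0.830 (0.805 to 0.855), 0.855 (0.8291 to 0.881), 0.812 (0.789 to 0.836) and 0.759 (0.735 to 0.784), and SNHG8 of 0.801, 0.878, 0.735 and 0.764. SNHG7 differed from them in direction. It stood at 139, 113, 144 and 127 CPM in G2M cells, against 124, 87.2, 119 and 103 CPM in G1 cells, and its ratios were 1.12 (1.06 to 1.18), 1.29 (1.21 to 1.38), 1.21 (1.14 to 1.28) and 1.23 (1.15 to 1.31). The S level of SNHG7 was its lowest in sets 1, 3 and 4, at 97.5, 98.9 and 93.6 CPM, and in set 2 it was 88.1 CPM. It reached 1.5-fold in no set.

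**Figure D3:**
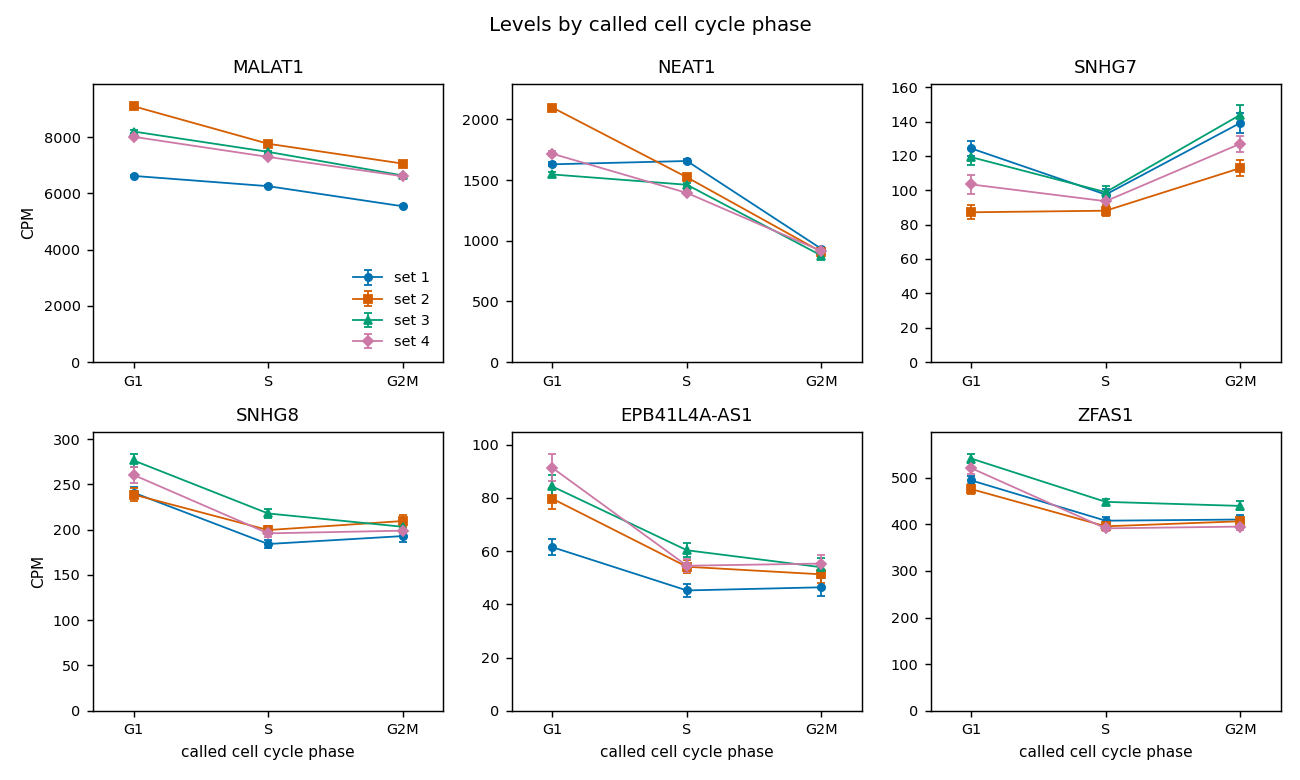
Levels of the 6 RNAs (CPM, axes from 0) in cells called G1, S and G2M in barcode sets 1 to 4, with exact 95% Poisson intervals. NEAT1 is lowest in G2M in every set (878 to 933), and SNHG7 is highest there (113 to 144).

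Phases differed in other measures too. Median UMIs per cell were 35110.0, 44027, 37073 and 35945.5 in G2M cells, against 30475.5, 37969, 30382 and 30633.5 in G1 cells, and the median mitochondrial share was 5.10%, 6.48%, 6.84% and 6.62% in G2M cells, against 5.53%, 7.28%, 7.33% and 7.27% in G1 cells. Among cells of the middle tertile of mitochondrial share in their set, the log2 ratio of G2M over G1 for NEAT1 was -0.81, -1.15, -0.58 and -0.76. The values over all cells were -0.80, -1.21, -0.82 and -0.91. Among cells of the middle tertile of UMIs per cell it was -0.89, -1.31, -0.82 and -0.88. For EPB41L4A-AS1 the values at middle mitochondrial share were -0.40, -0.64, -0.58 and -0.82, and at middle depth -0.36, -0.49, -0.51 and -0.54. The counts of 2 RNAs with a 1.5-fold span became 1 in set 2 at middle depth and 1 in set 3 at middle mitochondrial share. Ranking cells by the G2M score itself, a comparison added after seeing the data, gave NEAT1 974, 977, 934 and 904 CPM in the highest quintile of cells and 1945, 2299, 1684 and 1759.99 CPM in the lowest. Between these quintiles 1, 2, 2 and 2 of the 6 RNAs differed 1.5-fold, against 9.84%, 8.36%, 8.23% and 7.54% of all genes, and the second RNA was EPB41L4A-AS1. It had 48.5, 52.0 and 54.3 CPM in the highest quintile of sets 2, 3 and 4, against 78.4, 80.2 and 85.7 CPM in the lowest.

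Cells with a larger mitochondrial share held more NEAT1. Cells of each set were ranked by the share of UMIs from 13 mitochondrially encoded genes and cut into 5 equal groups, the quintiles. Levels were then taken as CPM of non-mitochondrial UMIs, so that mitochondrial UMIs do not dilute them. From the lowest to the highest quintile, NEAT1 stood at 1194, 1389, 1513, 1807 and 2215 in set 1 and at 1208, 1411, 1629, 1757 and 2385 in set 2. In set 3 it stood at 1214, 1291, 1411, 1539 and 2024 and in set 4 at 1091, 1226, 1356, 1538 and 2066. It rose at each step in every set. The highest quintile exceeded the lowest 1.85-fold (1.82 to 1.89), 1.97-fold (1.94 to 2.01), 1.67-fold (1.63 to 1.70) and 1.89-fold (1.85 to 1.93). NEAT1 was the only 1 of the 6 RNAs to reach 1.5-fold, in all 4 sets. The shares of all genes 1.5-fold higher in the highest quintile were 3.56%, 2.78%, 1.12% and 1.37%, while 2.13%, 1.91%, 0.700% and 0.672% were 1.5-fold lower.

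MALAT1 did not climb steadily. Its highest quintile held 8074, 9862, 8993 and 8984 in sets 1 to 4, against 6012, 8009, 7966 and 7182 in the lowest, which are ratios of 1.34, 1.23, 1.13 and 1.251. In sets 1, 3 and 4 the fourth quintile, at 6551, 7796 and 7420.2, lay below the third, at 6624, 8118 and 7829. In set 2 the third quintile, at 8124, lay below the second, at 8290. Among the hosts, ZFAS1 had ratios of 1.19 (1.14 to 1.23), 1.13 (1.09 to 1.18), 1.16 (1.12 to 1.20) and 1.19 (1.15 to 1.24), SNHG8 of 1.33, 1.16, 1.20 and 1.14, and EPB41L4A-AS1 of 1.35, 1.30, 1.24 and 1.33. SNHG7 stood at 127, 92.5, 124 and 109.5 in the highest quintile and at 118, 118, 134 and 124 in the lowest, and its ratios were 1.07 (0.998 to 1.16), 0.781 (0.720 to 0.845), 0.927 (0.862 to 0.996) and 0.884 (0.820 to 0.953). The interval in set 1 thus included 1, and those in sets 2 to 4 lay below it. Restricted to G1 cells, the log2 ratio of SNHG7 in set 3 was 0.12, against -0.11 over all cells of that set.

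**Figure D4:**
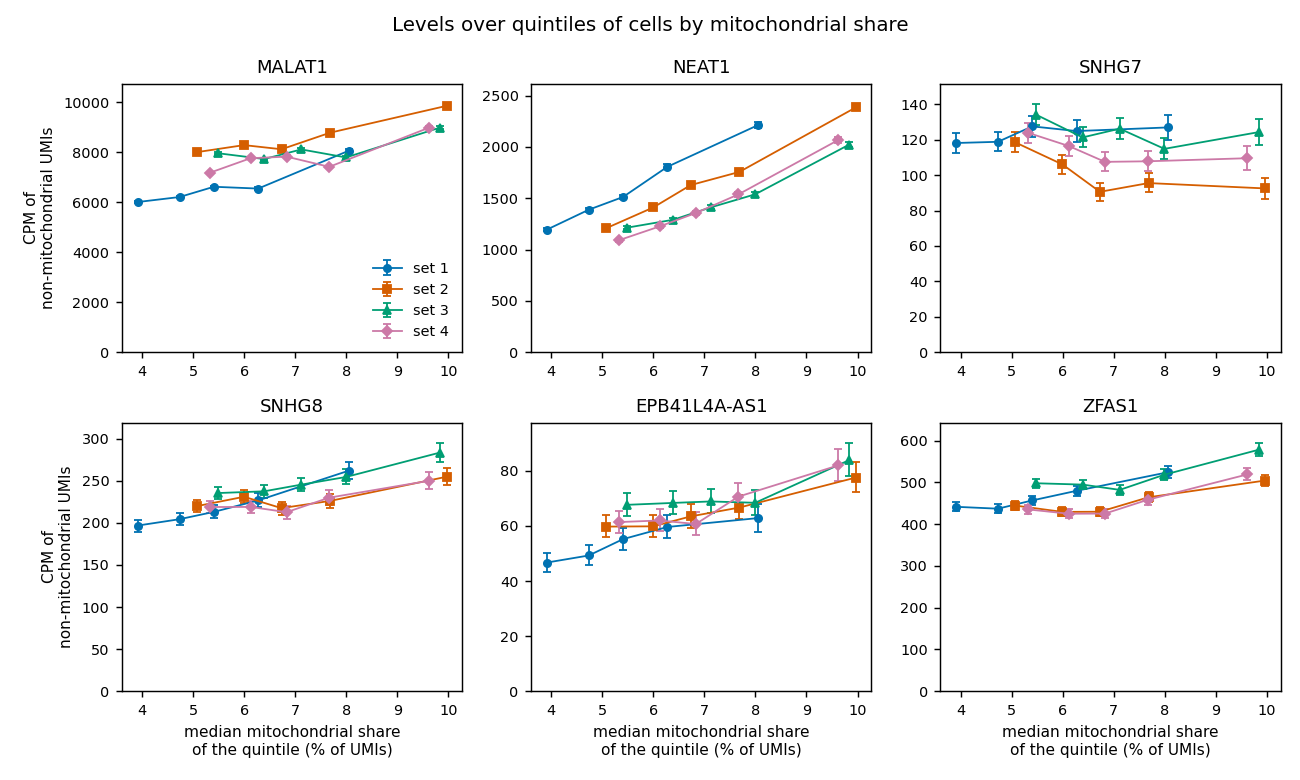
Levels of the 6 RNAs (CPM of non-mitochondrial UMIs, axes from 0) over quintiles of the cells of each barcode set, placed at the quintile's median mitochondrial share (% of UMIs), with exact 95% Poisson intervals. NEAT1 climbs at every step in each set, to 2024 to 2385 in the highest quintile, and SNHG7 does not.

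The quintiles also differed in depth and in phase. Cells of the highest quintile had median UMIs of 23113.5, 30700.0, 22072.5 and 24035, against 36823, 44808, 38396 and 37935 in the lowest. The share of cells called G2M was 17.9%, 18.6%, 17.5% and 25.8% in the highest quintile and 26.4%, 32.6%, 30.4% and 33.7% in the lowest. Within G1 cells alone the log2 ratio of NEAT1 between extreme quintiles was 0.75, 0.92, 0.77 and 1.32, and among cells of the middle tertile of UMIs per cell it was 0.95, 0.77, 0.69 and 0.84. Over all cells it was 0.89, 0.98, 0.74 and 0.92. In set 3 no RNA reached 1.5-fold when tertiles replaced quintiles. Ranked by UMIs per cell itself, none of the 6 RNAs differed 1.5-fold between extreme quintiles in any set, where 5.11%, 2.42%, 5.96% and 3.25% of all genes did. There NEAT1 had ratios of 0.753, 0.846, 0.889 and 0.866 in the deepest over the shallowest quintile, and SNHG7 of 1.26, 1.13, 1.22 and 1.22. These are ratios of CPM over all UMIs.

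ZFAS1, EPB41L4A-AS1 and SNHG8 were higher in cells with a larger share of ribosomal protein transcripts, while MALAT1 hardly differed. This ranking, by the UMIs of 84 ribosomal protein genes per non-mitochondrial UMI, was added after seeing the data. Those ribosomal protein UMIs stay in the denominator of the levels, so they dilute every other gene more in the highest quintile. The ratios of MALAT1 and of all genes given below are on this scale. From the lowest to the highest quintile, ZFAS1 stood at 374, 424, 452, 469 and 593 CPM of non-mitochondrial UMIs in set 1 and at 354, 395, 438, 459 and 595 in set 2. It stood at 397, 437, 475, 525 and 682 in set 3 and at 344, 388, 425, 461 and 606 in set 4, so it rose at every step. Its ratios between the highest and the lowest quintile were 1.58 (1.53 to 1.64), 1.68 (1.62 to 1.75), 1.72 (1.66 to 1.78) and 1.76 (1.70 to 1.83). EPB41L4A-AS1 had 71.7, 93.0, 99.9 and 98.3 in the highest quintile, against 42.5, 49.1, 52.7 and 44.9 in the lowest. Its ratios were 1.69 (1.51 to 1.88), 1.89 (1.71 to 2.10), 1.89 (1.72 to 2.09) and 2.19 (1.97 to 2.43), the largest of the 6 RNAs in each set.

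SNHG8 had ratios of 1.44 (1.36 to 1.52), 1.41 (1.34 to 1.49), 1.57 (1.49 to 1.66) and 1.55 (1.46 to 1.63), past 1.5-fold in sets 3 and 4. In sets 1 to 4, 2, 2, 3 and 3 of the 6 RNAs were 1.5-fold higher, against 1.68%, 0.420%, 0.856% and 0.724% of all genes that are not ribosomal protein genes. SNHG7 had smaller ratios of 1.33, 1.16, 1.17 and 1.28. NEAT1 had 1.48, 1.31, 1.35 and 1.46 and MALAT1 1.07, 1.04, 1.03 and 1.10. The median log2 ratio of all genes was -0.17, -0.19, -0.21 and -0.19, and 14.0%, 9.24%, 12.3% and 11.5% of them were 1.5-fold lower.

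**Figure D5:**
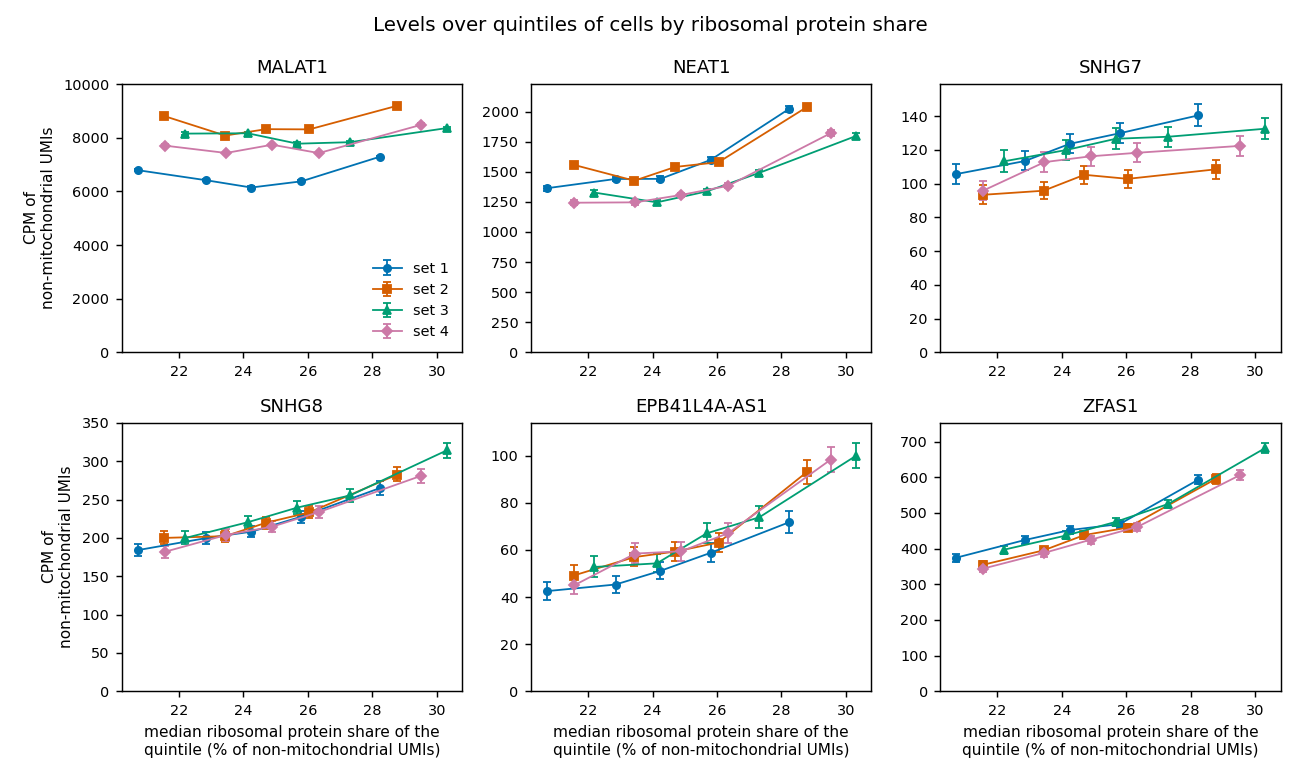
Levels of the 6 RNAs (CPM of non-mitochondrial UMIs, axes from 0) over quintiles of the cells of each barcode set, placed at the quintile's median share of ribosomal protein UMIs (% of non-mitochondrial UMIs), with exact 95% Poisson intervals. ZFAS1 climbs at every step in each set, to 593 to 682 in the highest quintile, while MALAT1 stays nearly level.

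Cells called G2M were fewer where the ribosomal protein share was high, at 11.8%, 18.0%, 12.4% and 20.9% of the highest quintile and 36.7%, 27.5%, 31.1% and 34.7% of the lowest. Within G1 cells the log2 ratios between extreme quintiles were 0.68, 0.97, 0.87 and 0.92 for ZFAS1. They were 0.94, 0.92, 1.02 and 1.19 for EPB41L4A-AS1 and 0.54, 0.67, 0.52 and 0.65 for SNHG8. Over all cells the values were 0.66, 0.75, 0.78 and 0.82 for ZFAS1 and 0.75, 0.92, 0.92 and 1.13 for EPB41L4A-AS1. For NEAT1, restriction to G1 left 0.45, 0.04, 0.45 and 0.73, so in set 2 it had hardly any difference there. The median mitochondrial share was also higher in the highest quintile, at 6.22%, 7.81%, 7.60% and 7.80% against 5.24%, 6.54%, 7.14% and 6.80% in the lowest. Its part in these ratios was not tested.

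For each RNA the genes with the most similar variation over cells were sought among 2259 genes with at least 50 CPM in every set, by Pearson's r of log(1 + UMIs) in thinned cells. These are descriptions over cells that share a library. The 95th percentile of the absolute mean r over genes was 0.12 for MALAT1 and 0.14 for NEAT1. For the hosts it was lower, at 0.087 for ZFAS1, 0.076 for SNHG8, 0.065 for EPB41L4A-AS1 and 0.064 for SNHG7. MALAT1 and NEAT1 were most like each other, with r of 0.29, 0.52, 0.36 and 0.46 in sets 1 to 4. After NEAT1, MALAT1 was most like MT-CO3 and MT-ND2, both mitochondrially encoded (mean r 0.29 and 0.26). NEAT1 was next most like IGFBP5, which binds insulin-like growth factors, and MT-CO1 (both mean r 0.28). The genes most opposed to NEAT1 and to MALAT1 were named after their values were seen. For NEAT1 they were UBE2S, a ubiquitin-conjugating enzyme of mitotic exit (mean r -0.43), the histone gene H2AFZ (-0.40) and PTTG1 (-0.38). PTTG1, or securin, restrains the separation of sister chromatids until anaphase. For MALAT1 they were PTTG1 (mean r -0.34), H2AFZ (-0.33) and CCNB1 (-0.28).

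ZFAS1 was most like the ribosomal protein genes RPS18, RPL13A and RPS19, with mean r of 0.24, 0.20 and 0.19. SNHG8 was most like RPL13A, RPS12 and RPL41 (0.16, 0.15 and 0.15) and EPB41L4A-AS1 like RPL13A, RPS18 and RPL13 (0.13, 0.12 and 0.11). RPL13A and RPS12 are themselves snoRNA hosts. SNHG7 was most like UBE2S, with r of 0.13, 0.18, 0.13 and 0.19, and then like the stress transcription factor ATF4 and RPL29 (0.12 each). All these correlations of hosts are weak. Among the 6 RNAs, SNHG7 and NEAT1 ran against each other in every set (r of -0.16, -0.13, -0.12 and -0.14). The 4 hosts were all positively related to each other, at most 0.14 in a set, and MALAT1 had a mean r between -0.05 and 0.03 with each host.

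Other genes of these pathways were taken from lists that include no member. Of 35 further snoRNA hosts 21 had counts and 20 were compared. SNHG18, a noncoding host, was the only one to span 2-fold, at 27.2, 46.5, 58.1 and 51.2 CPM in sets 1 to 4. Of all genes compared 5.85% spanned 2-fold, and the list's median span of 0.30 was near that of all genes. SNHG18 was followed by SNHG12, at 6.70, 9.11, 10.4 and 11.1 CPM, and SNHG9, at 16.2, 25.8, 26.1 and 23.3 CPM. SNHG18 had G2M over G1 ratios of 0.756, 0.565, 0.504 and 0.596. It was the 1 of 18 to 20 hosts called lower in G2M in sets 2, 3 and 4, where 1.53%, 1.68% and 1.46% of all genes were. Between extreme quintiles of ribosomal protein share it had ratios of 1.24, 1.247, 1.36 and 1.62. SNHG9 had 1.21, 1.20, 1.06 and 1.44 there, and SNHG12, measured in sets 3 and 4, 1.17 and 1.22. The 12 to 14 listed hosts that are not ribosomal protein genes had medians of 0.18 to 0.25 (log2), with 1 called higher in set 4 (SNHG18), where 0.724% of all genes were, and 1 called lower in set 2 (NCL, nucleolin), where 9.24% were. The list of genes with a 5' TOP tract that are not ribosomal protein genes had 14 measured members. Besides translation factors it holds VIM, NPM1, HNRNPA1 and NAP1L1, and its EEF2 and EEF1B2 are also among the listed hosts. Between the same quintiles its medians were 0.40, 0.28, 0.44 and 0.35. Of its members 2, 0, 1 and 1 were called higher, against 1.68%, 0.420%, 0.856% and 0.724% of all genes. These were EIF4B, an initiation factor (1.62, 1.74 and 1.62 in sets 1, 3 and 4), and EEF1A1, an elongation factor (1.53 in set 1), both named after their values were seen.

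The list of nuclear and other long noncoding RNAs had 4 to 5 members measured per set. KCNQ1OT1, an imprinted antisense RNA, spanned 2-fold, at 7.36, 15.6, 19.3 and 18.2 CPM, and was the only one of 5 to do so, against 5.85% of all genes. TUG1 stood at 20.6, 15.5, 16.7 and 15.2 CPM and LINC00657, also called NORAD, at 53.1, 42.6, 46.2 and 45.3 CPM. Between extreme quintiles of mitochondrial share the list's medians were 0.32, 0.18, 0.27 and 0.38 (log2), against -0.03 to 0.00 over all genes, with no member called. Genes of the paraspeckle proteins had medians of -0.19 to -0.06 there, and of 16 measured 1 was 1.5-fold lower, HNRNPH3 in set 1, where 2.13% of all genes were. Genes of the snoRNA-protein particles had medians of -0.33 to -0.23, and 3 of 11 were 1.5-fold lower in set 1, namely NOP56, RUVBL1 and RUVBL2, and none in the other sets. The shares of all genes lower by this measure were 2.13%, 1.91%, 0.700% and 0.672% in sets 1 to 4. NCL, which codes for nucleolin and hosts snoRNAs itself, was lower in sets 1, 2 and 3 (0.662, 0.6195 and 0.584). All 4 were named after their values were seen, as was HNRNPH3. None of the paraspeckle or particle genes was 1.5-fold apart between G2M and G1. Of 9 to 11 NMD factors, 3, 2, 4 and 3 were 1.5-fold higher in G2M than in G1, against 6.18%, 5.61%, 6.18% and 6.26% of all genes. RBM8A, a subunit of the exon junction complex named after its values were seen, was so in all 4 sets (1.72, 1.54, 1.61 and 1.53). In the span over the sets, none of the paraspeckle, particle, NMD and 5' TOP genes reached 2-fold.

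The sources used here do not give whether reads were counted by strand. Whether reads of antisense genes were kept apart from reads of the genes they overlap was therefore not checked. EPB41L4A, on the strand opposite EPB41L4A-AS1, had 6, 10, 16 and 11 UMIs in whole sets. ZNFX1, opposite ZFAS1, stood at 9.31, 9.43, 9.17 and 10.2 CPM. FAM69B, opposite SNHG7, was looked up after the values of SNHG7 were seen and stood at 17.7, 25.9, 23.1 and 21.9 CPM.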

How the data were processed

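Whole-number UMI counts of genes in cells, as the authors deposited them, were the only values used. The log-scaled table that goes with them was left aside. Tools named in the submitters' processing notes are Seurat 3.0 and Cell Ranger 3.0.0, and builds named there, without a role, are mm10 and hg19. No source used here states a cell filter. The number of columns left out because they match no sample was 0.

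Counts were summed per barcode set and given as CPM with exact 95% Poisson intervals. Ratios have exact conditional binomial intervals. These cover counting error only, and no p-value was computed, since each set is 1 sample. Genes entered a comparison at 10 CPM in a set, and ratios were judged on log2(level + 1) at 2-fold between sets and 1.5-fold between cells of a set. Cells were thinned to 10000 UMIs for Fano factors, correlations and phases (scanpy 1.11.5, Python 3.11.15). Ratios between sets, Fano factors and ratios between extreme quintiles were tested on simulated data. Phase calls, correlations and the other statistics were not. Named genes were all members with counts, up to 3 most similar genes each, the 3 widest-spanning members of the further host and long noncoding RNA lists and the overlapping genes. Others are marked as named after their values were seen. Members and lists were chosen with earlier results of these data known.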

Additional observations from a re-analysis of the deposited data

Results flagged for a closer look

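SNHG7 had a Fano factor of 1.35 in set 1, against 1.19, 1.20 and 1.19 in sets 2 to 4. Set 1 lay 0.916 of the full span of the 4 values away from its nearest neighbour, which is past the 95% critical value in Dixon's test. Of 24 measures compared in this way, 4 for each of 6 RNAs, 1 passed, and chance passes about 1 in 20. The sets are unlabelled samples, not replicates of a group.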

How the results depend on the processing

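No paired analysis was possible because the lines have 1 library apiece and carry no replicate numbers, so no replicate could be left out either. Over the alternatives, 106 counts of RNAs past a threshold lay within 1.5 times the reported count and 43 did not. For single RNAs, 335 values stayed within a limit and 295 did not, and no value past a threshold changed sign. The limit was the counting interval for ratios. For Fano factors it was the standard deviation of the RNA's values over the 4 sets, which is not counting error. Most count changes follow from the threshold itself. At a Fano factor 25% above 1, 5 RNAs were past it in set 1. At a threshold of 25% in place of 1.5-fold the counts for mitochondrial share were 4, 3 and 3 in sets 1, 2 and 4, for UMIs per cell 2 in set 1, for ribosomal protein share 5, 4 and 5 in sets 1, 2 and 4, for G2M score 2, 4, 4 and 6, and for phases 4, 4, 4 and 5. At 2-fold they were 0 in every set for mitochondrial share, 0, 0, 0 and 1 for ribosomal protein share, 0, 1, 0 and 0 for G2M score and 0, 1, 0 and 0 for phases. The shares of all genes past these other thresholds are not given here. These counts therefore do not show whether the RNAs differ from genes at large. For the following, apart from the change of denominator, the cause was not tested. With tertiles in place of quintiles, the mitochondrial share count was 0 in set 3, the ribosomal protein count 1 in sets 1 and 2, and the G2M score count 1 in sets 2, 3 and 4 (2 reported). With UMIs outside mitochondrial and ribosomal protein genes as denominator, 4 RNAs were past 1.5-fold in set 1 for ribosomal protein share. That denominator leaves out the UMIs by which the cells were ranked, which raises the ratio of every other gene. The share of all genes past 1.5-fold with it is not given here. Among cells of middle depth the phase count was 1 in set 2 and the G2M score count 1 in set 4, and at middle mitochondrial share both were 1 in set 3. The comparisons by ribosomal protein share and G2M score, cells of middle mitochondrial share and cells with at least 2% mitochondrial UMIs were added after seeing the data. Leaving mitochondrial and ribosomal protein genes out of the totals raised the median of all genes by 0.47, 0.50, 0.53 and 0.51 (log2), and no RNA became 2-fold apart between sets under any scaling. Depth limits EPB41L4A-AS1 most, with 0.535 to 0.651 UMIs per thinned cell.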

Other observations

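A few cells held little MALAT1, and they were not alike between sets. Cells under 10% of their set's median MALAT1 level numbered 6, 20, 9 and 10 in sets 1 to 4. They were chosen by MALAT1, so its level in them is no result. NEAT1 in these cells stood at 113 and 121 CPM in sets 1 and 2, and at 1016 and 549 CPM in sets 3 and 4. In all cells of sets 1 to 4 NEAT1 stood at 1485, 1514, 1343 and 1305 CPM. ZFAS1, by contrast, was at 679, 392, 544 and 385 CPM in them. Their median mitochondrial share was 3.15%, 0.438%, 10.7% and 5.41% and their median UMIs were 15802, 15646.5, 26765 and 18812.5. The counts are small, with 14 and 39 NEAT1 UMIs in sets 1 and 2.

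Cells with over 15% mitochondrial UMIs numbered 16, 24, 29 and 17. In them MALAT1 stood at 17552, 15121, 12664 and 14775 CPM of non-mitochondrial UMIs, against 6588, 8529, 8058 and 7757 over all cells, and NEAT1 at 4348, 5064, 3700.1 and 3359.5, against 1572, 1627, 1447 and 1402. ZFAS1 stood at 375, 484, 434 and 555 in these cells and at 463, 451, 509 and 447 over all cells. Their median UMIs were 14636, 24798, 19036 and 18647.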
